A study of Rattus norvegicus with 4 samples.

Results

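The axon guidance families (semaphorins with their plexin and neuropilin receptors, ephrins with their Eph receptors, slits with Robo receptors, netrins with Unc5 receptors) were followed in RT4D6 cells after Sox10 knockdown. The members were taken by gene symbol alone, as every probe set that the platform annotation pairs with a single symbol of these families, and 95 probe sets of 56 genes were found among the 14217 genes with such a probe set. Each gene was represented by its probe set with the highest mean log2 signal over the 4 arrays, and further probe sets are given beside it. RT4D6 is a rat Schwannoma line, grown from a tumour of Schwann cells, which ensheath peripheral axons. The 2 wild type (specific) Sox10 siRNA samples were compared with the 2 mutant (control) siRNA samples of the same line, both siRNAs being given for 48 h, and no untransfected cells were among these samples. All 4 samples come from 1 cell line in culture. RNA was read on 1-colour Affymetrix arrays, and the values are MAS5 signals, 1 brightness per probe set on a linear scale. A log2 fold change is wild type minus mutant siRNA after centring each array on its median, with its standard error (SE).

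Guidance molecules steer growing axons and migrating cells by attraction or repulsion. Class 3 semaphorins are secreted and are bound by neuropilins, which signal through class A plexins, whereas most other semaphorins bind plexins directly. Ephrins are held in the membrane and meet Eph receptor tyrosine kinases on a neighbouring cell, and either side can signal. Slits are secreted repellents read by Robo receptors, and netrins act through Dcc and the Unc5 family. In peripheral nerve, Schwann cells both make such cues and respond to them, and ephrin-B and Eph-B signals sort Schwann cells from fibroblasts after injury.

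The targeted gene, Sox10, had signals of 163 and 335 with the wild type siRNA against 2873 and 2890 with the mutant siRNA, as the labels would have it (log2 fold change -3.54 ± 0.33 SE, adjusted p = 0.00130). The array medians lay between 101 and 110 and the 25th percentiles, taken as near background, between 26.2 and 31.0. The median log2 fold change of all 16125 probe sets tested was 0.13 on the centred scale, 0.05 on the deposited scale and 0.08 once quantile normalized. The summed signal of 7 measured Schwann cell markers was 1155 and 1657 with the wild type siRNA against 17504 and 13347 with the mutant siRNA, and 6 of them were lower at an adjusted p under 0.05 (limma). Sox10 itself is in this sum and count. Erbb3, with 35 and 32.6 against 674 and 438, entered the test only through the mutant siRNA arrays, so its groups had to differ. Over all 9163 genes tested, 10.6% were lower and 17.4% were higher. The study also selected Ngfr and Erbb3 as down-regulated on the same arrays, so the fall is not independent of that selection. Its authors had also reported, from earlier profiling of this knockdown, lower Gfap and Ngfr and higher smooth muscle genes, Acta2 among them. The paper does not say outright whether that profiling used these same arrays, so the smooth muscle rise below may not be independent of that report. The sum of 6 markers of dividing cells was 5152 and 11383 against 22336 and 26023, with 5 lower. The sum of 8 smooth muscle markers was 23926 and 28676 against 6648 and 11300, with 2 higher, and Tagln alone gave 21242 and 22657 against 5482 and 9015. Signals of 5 endothelial markers summed to 162 to 304, those of 6 macrophage markers to 537 to 1004, those of 6 neuronal markers to 550 to 870, those of 6 melanocyte markers to 789 to 2435 and those of 6 fibroblast markers to 1532 to 2956. Within these lists the endothelial Vwf reached at most 8.9 while Tek read 110 to 142, and the macrophage Itgam reached at most 7.1 while Cd14 read 453 to 778. The fibroblast sum was mostly Col1a1, at 1371 to 2868, and the other fibroblast markers were too dim to test. The melanocyte Mlana reached at most 5.1 while Tyrp1 read 327 to 2164. The part of these shifts in the changes of guidance genes was not tested, and in such bulk RNA fewer cells of a type cannot be told apart from less RNA per cell.

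Of the 56 genes, 23 were bright enough to test, meaning that 2 or more arrays read them no lower than the array median. At an adjusted p under 0.05 (limma, Benjamini-Hochberg over all 16125 probe sets), 4 were lower with the wild type siRNA (Sema3b, Ephb3, Plxna3 and Plxnd1), 1 was higher (Sema3a) and 18 were not called. Over all 9163 genes tested in the same way, 10.6% were lower and 17.4% were higher, against 17.4% and 4.35% of the guidance genes. The median log2 fold change was -0.34 over the 23 genes and 0.19 over all genes tested. On the centred scale both wild type siRNA arrays lay below both mutant siRNA arrays for 11 of the 23, against 24.4% of all genes tested, and above them for 5, against 45.3%. Sema3a and Plxna4 entered the test only through the arrays of 1 group and so had to differ, and of the other 21 genes 4 were lower and 0 higher at that threshold. Among these 21, both wild type siRNA arrays lay below both mutant siRNA arrays for 10 and above them for 4. Of 11 ligands tested 1 was lower and 1 was higher, and of 12 receptors tested 3 were lower. Over all 33 member probe sets tested, 4 of them through the arrays of 1 group only, 7 were lower and 1 was higher, against 12.1% and 14.6% of the 16125. Which direction held more calls among the 16125 depended on the scaling, with 2280 lower and 1940 higher for signals as deposited. The tests rest on 2 arrays per group, and the p-values measure only the spread between these samples. For the spread of each probe set limma also draws on the other probe sets tested, through a trend with intensity. The study describes the samples as 2 independent pairs, and the labels do not say how far apart the cultures were. The test above takes no account of the pairs. With the replicate number as a block 6 genes were lower, Efnb1 and Sema6a being added.

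**Figure D1:**
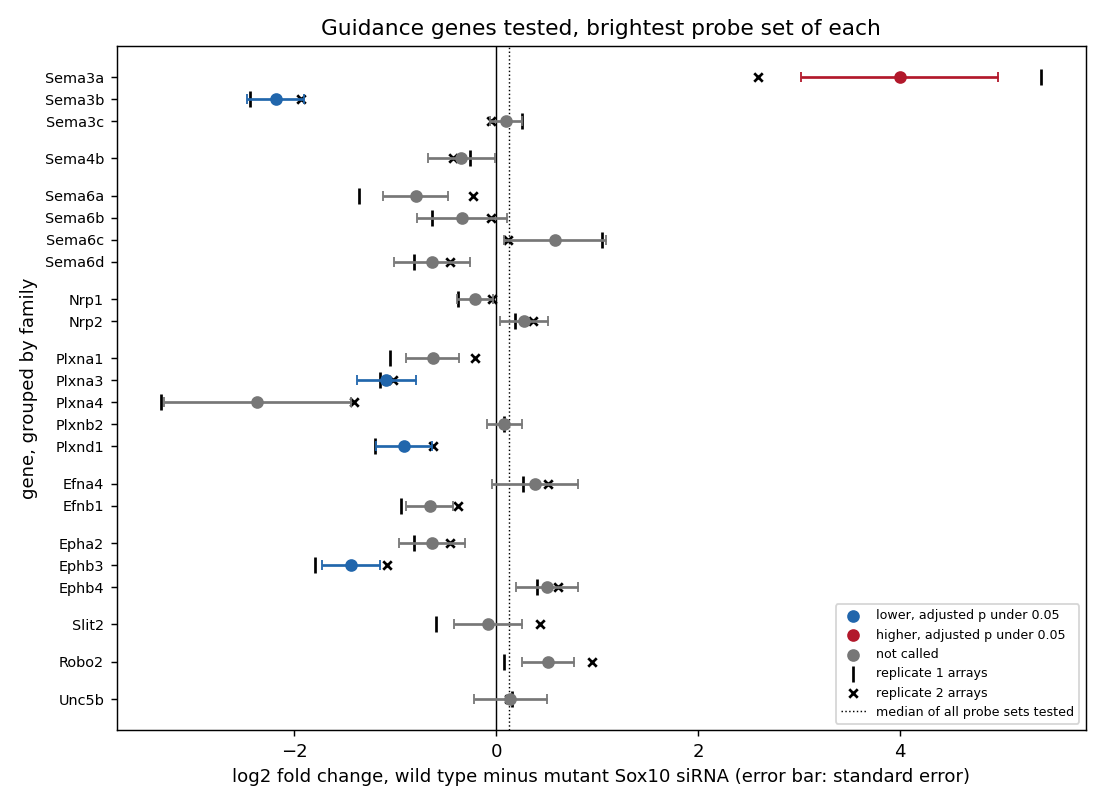
Log2 fold change (wild type minus mutant Sox10 siRNA) of the 23 guidance genes tested, in the brightest probe set of each, with the standard error as bar, grouped by family. Black ticks and crosses give the replicate 1 and replicate 2 arrays by themselves, and the dotted line the median of all probe sets tested (0.13). Sema3b, Ephb3, Plxna3 and Plxnd1 lie to the left in blue, and Sema3a lies at 3.99 in red.

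Among the semaphorins, Sema3b changed the most on the lower side. This secreted class 3 semaphorin, read by neuropilins, had signals of 338 and 271 with the wild type siRNA against 1882 and 1127 with the mutant siRNA. These groups did not overlap, and each lay well above the array median. Its log2 fold change came to -2.19 (± 0.29 SE, adjusted p = 0.00276 from limma), a 4.55-fold decrease, with -2.44 between the replicate 1 arrays and -1.93 between the replicate 2 arrays. The adjusted p was between 0.000777 and 0.0203 when any single array was dropped. The study itself listed this probe set among those down-regulated on the same arrays, so the call is not independent of its selection.

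Sema3a, the class 3 semaphorin known best as a repellent of sensory axons, moved the other way. Its signals were 264 and 182 with the wild type siRNA and 6.40 and 33.0 with the mutant siRNA. Both wild type siRNA arrays were above the array median, while the mutant siRNA arrays were near or below the 25th percentile. It thus entered the test only through the wild type siRNA arrays, and the groups had to differ. With no filter its adjusted p from limma was 0.0214. The log2 fold change of Sema3a came to 3.99 (± 0.97 SE, adjusted p = 0.0204 from limma with the filter), with 5.40 between the replicate 1 arrays and 2.59 between the replicate 2 arrays. The size of the change is not established, since the control signals lie at the level taken as near background. With signals raised to the 25th percentile of their array it was 2.95 (adjusted p = 0.00565), and the call was lost without wild type siRNA replicate 1 (adjusted p = 0.174).

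The other semaphorins tested were not called in their brightest probe set. Sema3c, a secreted class 3 semaphorin, had signals of 9338 and 9108 against 8039 and 10315, far above the array medians on every array, and a log2 fold change of 0.10 (± 0.16 SE). The 2 groups overlapped, and the sign of so small a value turned with quantile normalization (-0.07). The class 6 semaphorins span the membrane and bind class A plexins, and all 4 of them measured were tested. Sema6d was at -0.64 (signals of 202 and 138 against 363 and 207), Sema6b at -0.34 and Sema6c at 0.58, with adjusted p from 0.235 to 0.595. Sema4b, a class 4 transmembrane semaphorin, had signals of 260 and 165 against 319 and 243 and a log2 fold change of -0.35 (adjusted p = 0.460).

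Sema6a was the class 6 member with the most probe sets, 5, and all 5 had lower mean log2 values with the wild type siRNA. The brightest had signals of 672 and 682 against 1762 and 875, a log2 fold change of -0.80 (± 0.32 SE, adjusted p = 0.0983), and passed with the replicate number as a block (adjusted p = 0.0258). The second had signals of 72.8 and 126 against 309 and 263 and was lower at -1.50 (± 0.40 SE, adjusted p = 0.0283), which did not hold without mutant siRNA replicate 1 (adjusted p = 0.156), mutant siRNA replicate 2 (0.0988) or wild type siRNA replicate 1 (0.0743), or with no filter (0.0540). In both of these probe sets the groups did not overlap. The other 3 were too dim to test, the fourth with signals of 8.40 and 2.30 against 95.5 and 110 (adjusted p = 0.0383 with no filter). The probe sets of Sema6a thus shared a sign, while the size differed between them and the brightest was not called.

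Plexins were the receptor family with the most calls, 2 of 5 tested being lower. Plxna3, a class A plexin that carries semaphorin signals to the cytoskeleton, had signals of 146 and 173 with the wild type siRNA against 333 and 383 with the mutant siRNA. These groups did not overlap and the arrays of each group lay close together. Its log2 fold change came to -1.09 (± 0.29 SE, adjusted p = 0.0272 from limma), a 2.13-fold decrease, with -1.16 and -1.02 in the replicate 1 and replicate 2 arrays. A second probe set of Plxna3 was lower too, at -1.64 (± 0.40 SE, adjusted p = 0.0213), with signals of 75.8 and 149 against 377 and 324. The first call did not hold without mutant siRNA replicate 1, mutant siRNA replicate 2 or wild type siRNA replicate 1 (adjusted p = 0.0961, 0.15 and 0.0748) or with no filter (0.0564), and the second did not without mutant siRNA replicate 1 or 2 (0.119 and 0.0782) or without an intensity trend (0.0508).

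Plxna4, the class A plexin through which Sema3a acts on sensory axons, had signals of 12 and 62.3 with the wild type siRNA and 123 and 181 with the mutant siRNA. A second probe set had 11.6 and 9.90 against 144 and 114. In both probe sets every wild type siRNA array lay below the array median and every mutant siRNA array above it. Neither passed, at log2 fold changes of -2.37 (± 0.93 SE, adjusted p = 0.0910) and -3.50 (± 1.16 SE, adjusted p = 0.0563). With signals raised to the 25th percentile of their array the values were -1.76 (adjusted p = 0.0573) and -2.16 (adjusted p = 0.0306). The size of the change is therefore not established, and the second probe set passed or missed the threshold with the treatment of low signals.

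Plxna1, the third class A plexin tested, had signals of 319 and 435 against 677 and 549 and a log2 fold change of -0.63 (± 0.26 SE, adjusted p = 0.108). Plxnd1, a plexin known from vascular patterning that binds Sema3e, had signals of 327 and 522 against 771 and 881. Its groups did not overlap and it was lower at -0.92 (± 0.28 SE, adjusted p = 0.0416 from limma), a 1.89-fold decrease. This call was close to the threshold and did not hold without mutant siRNA replicate 1, mutant siRNA replicate 2 or wild type siRNA replicate 1 (adjusted p = 0.114, 0.175 and 0.170), with no filter (0.0545) and without an intensity trend (0.0949). Plxnb2, a class B plexin that binds class 4 semaphorins, had signals of 2110 and 1987 against 2053 and 2049, a log2 fold change of 0.08 (± 0.17 SE). It was bright on every array, and its sign turned with quantile normalization (-0.02) and on the deposited scale.

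Neuropilins bind class 3 semaphorins and vascular growth factors. Nrp1 had signals of 2354 and 2469 with the wild type siRNA and 3143 and 2775 with the mutant siRNA, a log2 fold change of -0.21 (± 0.18 SE, adjusted p = 0.393). A second probe set was at -0.44 (adjusted p = 0.108), and in each the wild type siRNA arrays lay below the mutant siRNA arrays by a small amount. Nrp2 had 642 and 832 against 578 and 705, with overlapping groups and a log2 fold change of 0.27 (adjusted p = 0.417), and 141 and 121 against 23.5 and 67.7 in a dimmer probe set, at 1.79 (± 0.73 SE, adjusted p = 0.102). That dimmer probe set entered the test only through the wild type siRNA arrays. Neither neuropilin was called in any probe set.

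**Figure D2:**
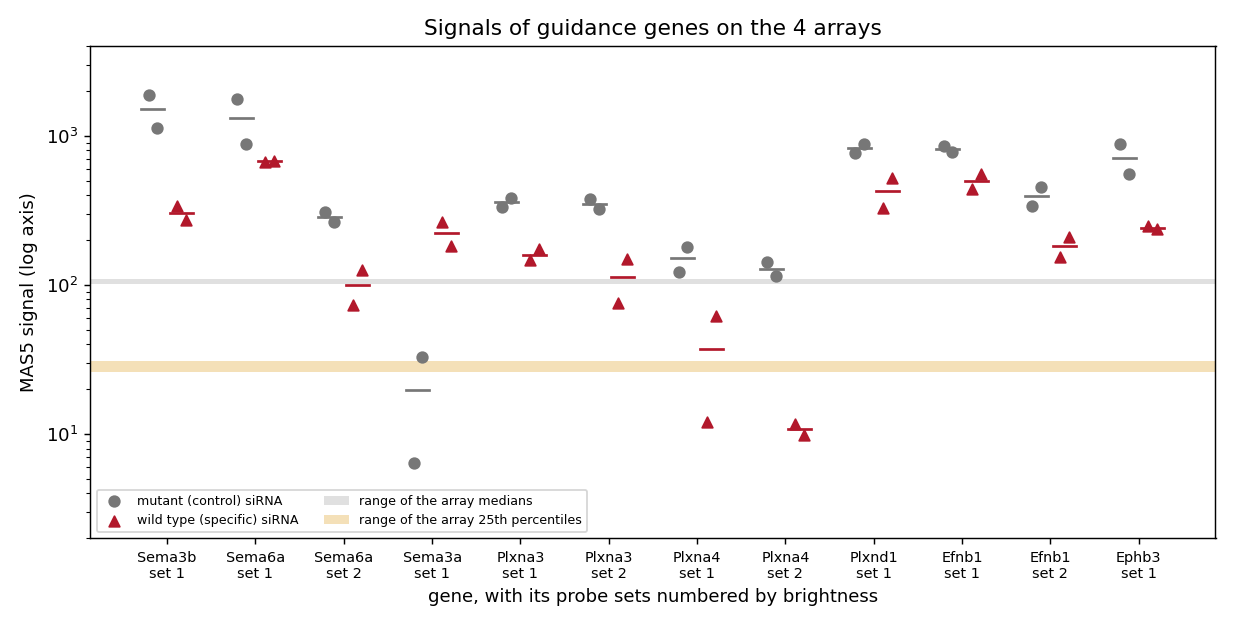
MAS5 signal, on a log axis, of 12 probe sets of the guidance genes on each of the 4 arrays, with lines at the mean of each pair of arrays. Grey circles stand for the mutant siRNA and red triangles for the wild type siRNA, and the bands mark the range of the array medians and of the 25th percentiles. Sema3a is the only one of these genes with the red triangles on top, and the red triangles of the second Plxna4 probe set, 11.6 and 9.90, fall below the lower band.

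Of the Eph receptors, Ephb3, a receptor tyrosine kinase for B-class ephrins, was lower. Its signals were 247 and 238 with the wild type siRNA and 879 and 550 with the mutant siRNA, with both groups above the array median and no overlap. Its log2 fold change came to -1.44 (± 0.29 SE, adjusted p = 0.00978 from limma), a 2.72-fold decrease, with -1.80 and -1.08 in the replicate 1 and replicate 2 arrays. The call did not hold without mutant siRNA replicate 1, the brightest array for this gene (adjusted p = 0.0731). Ephb4, a B-class receptor known from vessels, was not called with signals of 270 and 385 against 210 and 275 and a log2 fold change of 0.50 (± 0.31 SE, adjusted p = 0.245), the wild type siRNA arrays lying above the others only after centring. Epha2, an A-class receptor common in epithelial and tumour cells, had signals of 194 and 317 against 349 and 476 and a log2 fold change of -0.64 (± 0.32 SE, adjusted p = 0.171). Whether Ephb3 and Ephb4 differ in their response was not tested. The other 9 Eph receptors measured were too dim to test, and 5 of these were below the 25th percentile on 2 or more arrays.

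Efnb1, a transmembrane ephrin that binds Eph-B receptors, lay close to the threshold. Its brightest probe set had signals of 437 and 551 with the wild type siRNA and 859 and 781 with the mutant siRNA, a log2 fold change of -0.66 (± 0.23 SE, adjusted p = 0.0659), and passed with the replicate block (adjusted p = 0.0392) and with the signals as deposited (adjusted p = 0.0413). Its second had 155 and 209 against 340 and 452 and was lower at -1.04 (± 0.30 SE, adjusted p = 0.0363). In both, the wild type siRNA arrays lay below the mutant siRNA arrays. The second call did not hold without mutant siRNA replicate 1 or 2 or wild type siRNA replicate 1 (adjusted p = 0.0825, 0.210 and 0.117), with no filter (0.0694) or without an intensity trend (0.0612). Efna4, a membrane-anchored A-class ephrin, had 124 and 185 against 106 and 142, a log2 fold change of 0.39 with overlapping groups (adjusted p = 0.529).

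The slit, Robo, netrin and Unc5 genes tested were not called. Slit2, a secreted repellent, had signals of 174 and 257 with the wild type siRNA and 271 and 208 with the mutant siRNA, with overlapping groups and a log2 fold change of -0.09 (± 0.34 SE). Robo2, its receptor, was measured by 3 probe sets that were all tested, with log2 fold changes of 0.51, 0.33 and 0.74 and adjusted p from 0.173 to 0.447. The brightest of them had 719 and 1073 against 699 and 608, so that most of its difference came from wild type siRNA replicate 2, and it passed only without wild type siRNA replicate 1 (adjusted p = 0.0496) among the arrays left out. Unc5b, a netrin receptor, had 874 and 1559 against 804 and 1561 and a log2 fold change of 0.14 (± 0.36 SE). Both of its replicate 2 arrays were brighter than its replicate 1 arrays, so that the replicates differed more than the siRNAs did. Neither netrin measured, Ntn1 or Ntn5, was bright enough to test. Unc5cl, which the symbol rule takes in, is a death domain protein related to the Unc5 receptors and was too dim to test.

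The 33 genes not tested had signals between 1.3 and 161 in their brightest probe set, and 29 of them lay below the array median on all 4 arrays. Of these, 6 lay below the 25th percentile on all 4 arrays (Epha5, Epha8, Ephb1, Ephb6, Sema4d and Unc5a). Among the untested genes 3 had both wild type siRNA arrays below both mutant siRNA arrays, 8 above and 22 overlapped, against 17.5% below and 17.2% above over all 5054 genes too dim to test. Slit1, a slit made mostly by neurons, stood out with 67.1 and 30 against 3.80 and 4.20, with both mutant siRNA arrays below the 25th percentile (adjusted p = 0.102 with no filter). Ntn1, the founding netrin, had 25.7 and 32.4 against 51.0 and 107 (adjusted p = 0.427 with no filter). A second probe set of Efna1, an A-class ephrin, had 3.70 and 7.10 against 89.0 and 95.0 (adjusted p = 0.0447 with no filter), while the brighter one had 79.6 and 90.1 against 37.4 and 112 (0.770). The 2 probe sets thus gave different pictures of Efna1, below the array median on nearly all arrays. These genes were chosen for mention after their values were seen.

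Of the 24 guidance genes with more than 1 probe set, 10 had lower mean log2 values with the wild type siRNA in every probe set, 6 had higher values in every probe set and 8 had both. The 10 included Sema6a, Plxna3, Plxna4, Efnb1, Nrp1 and Slit2, and the 6 included Nrp2, Robo2 and Unc5b. Plxna1 was among the 8, with -0.63 in its tested probe set and -2.37 and 0.63 in 2 that were too dim to test. Probe sets of a gene were read from the same RNA samples, so these counts describe how far the array repeats itself. Of these 24 genes, 13 were too dim to test in their brightest probe set, as were 62 of all 95 member probe sets. Many of the signs counted thus rest on dim signals.

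**Figure D3:**
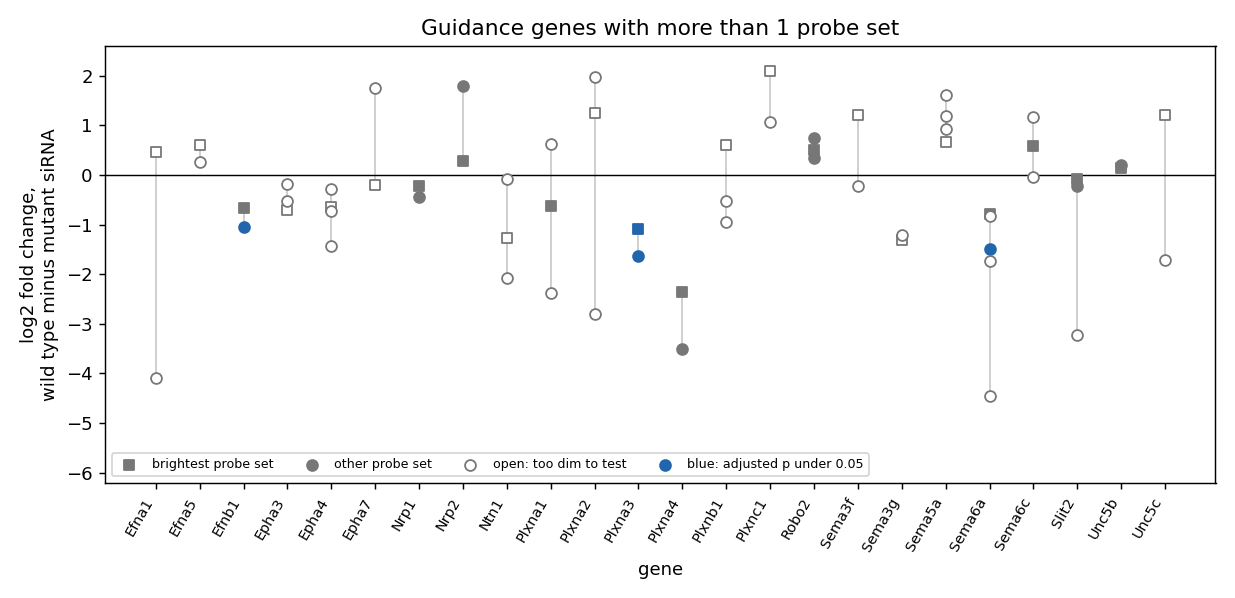
Log2 fold change (wild type minus mutant Sox10 siRNA) of every probe set of the 24 guidance genes with more than 1. Squares are the brightest probe set of a gene and circles the others, open symbols were too dim to test, and blue marks an adjusted p under 0.05. Efna1 spans 0.47 to -4.09 in open symbols, and both Plxna3 symbols are blue.

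Since Sox10 binds DNA at a short core that the study took as ACAAT, or ATTGT on the other strand, the RefSeq promoter windows of the rat assembly GRCr8 were read for these letters in the 250 bases before the annotated start. The study searched a longer stretch, from farther upstream through the first intron, with binding matrices and a conservation filter. A window without the core here could still hold sites by that search. Windows were found for 42 of the 56 genes, 43 windows in all, with 1 gene having 2. The core was in 7 of the 43 windows (16.3%) and in 10049 of all 33469 windows of that length (30.02%). The sequence ACAAAG, or CTTTGT on the other strand, was in 6 of the 43 (14.0%) and in 5454 of all (16.3%). Of the genes lower with the wild type siRNA 3 have a window, and these are shown 5′ to 3′ on the strand of the gene because they carry the plexin and Eph results, with the core in capitals where present. No core is in any of the 3 windows, which says only that these letters are not within those 250 bases. They are Ephb3 at chr11:93363776-93364025 (minus strand), Plxna3 at chrX:157266857-157267106 (plus strand) and Plxnd1 at chr4:150715188-150715437 (minus strand).
Ephb3: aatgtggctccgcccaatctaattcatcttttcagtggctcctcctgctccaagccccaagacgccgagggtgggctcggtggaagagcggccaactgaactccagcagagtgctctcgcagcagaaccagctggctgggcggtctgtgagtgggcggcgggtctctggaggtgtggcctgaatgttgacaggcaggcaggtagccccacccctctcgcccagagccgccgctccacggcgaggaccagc
Plxna3: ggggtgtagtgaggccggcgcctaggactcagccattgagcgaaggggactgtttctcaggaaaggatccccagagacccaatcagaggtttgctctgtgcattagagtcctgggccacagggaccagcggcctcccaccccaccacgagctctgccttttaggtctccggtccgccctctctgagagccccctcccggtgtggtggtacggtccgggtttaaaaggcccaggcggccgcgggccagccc
Plxnd1: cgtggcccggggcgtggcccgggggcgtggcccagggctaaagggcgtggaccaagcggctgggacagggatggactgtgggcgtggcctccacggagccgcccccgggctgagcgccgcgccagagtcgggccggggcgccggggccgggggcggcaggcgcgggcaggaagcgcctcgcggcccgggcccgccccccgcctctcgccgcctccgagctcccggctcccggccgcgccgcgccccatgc

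Of the genes tested and not called, 3 hold the core, and they are shown for contrast. Sema3c at chr4:18699628-18699877 (minus strand) holds 2 cores that share letters, starting 210 and 207 bases before the annotated start. Sema6b at chr9:1047743-1047992 (minus strand) holds 1, starting 53 bases before it, and Unc5b at chr20:29307271-29307520 (minus strand) holds 1, starting 97 bases before it. The windows differ in base composition, from 83.2% G and C in Plxnd1 to 35.2% in Sema3c. A match is a description of letters, and no binding was measured here.
Sema3c: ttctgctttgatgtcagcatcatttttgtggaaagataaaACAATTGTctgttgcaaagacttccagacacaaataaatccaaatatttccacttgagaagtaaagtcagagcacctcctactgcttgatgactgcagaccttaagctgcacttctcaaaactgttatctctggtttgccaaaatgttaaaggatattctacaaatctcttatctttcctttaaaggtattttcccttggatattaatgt
Sema6b: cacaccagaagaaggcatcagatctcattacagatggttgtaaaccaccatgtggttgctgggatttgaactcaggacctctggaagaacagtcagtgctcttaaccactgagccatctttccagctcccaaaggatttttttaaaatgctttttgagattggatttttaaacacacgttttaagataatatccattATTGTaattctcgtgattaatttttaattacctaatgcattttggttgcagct
Unc5b: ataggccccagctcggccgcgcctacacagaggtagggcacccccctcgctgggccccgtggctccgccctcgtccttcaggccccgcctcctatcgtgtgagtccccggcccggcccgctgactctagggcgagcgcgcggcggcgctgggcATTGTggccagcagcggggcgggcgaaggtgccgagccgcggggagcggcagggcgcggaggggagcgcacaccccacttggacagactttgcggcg

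The genes that work beside and below these receptors were read from a list of 91 coreceptors, other guidance receptors and intracellular effectors, of which 85 were measured and 64 tested. Of these 64, 9 were lower and 13 higher at an adjusted p under 0.05 (limma), that is 14.1% and 20.3%, against the 10.6% and 17.4% of all genes tested, and the median log2 fold change was 0.05. The counts for 4 classes of the list were as follows. Among other guidance receptors and coreceptors 3 of 9 tested were lower and 0 higher, and among Eph and ephrin effectors 5 of 13 were lower and 0 higher. Among plexin and neuropilin effectors 6 of 19 were higher and 0 lower, and among Robo and netrin effectors 3 of 12 were higher and 1 lower. Whether the classes differ was not tested.

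On the lower side, L1cam, an adhesion molecule that is a coreceptor of Sema3a with Nrp1, had signals of 247 and 315 against 1295 and 1596, a log2 fold change of -2.29 (± 0.24 SE, adjusted p = 0.00156). Rtn4r, the Nogo receptor, which stops axon growth at myelin, had 97.5 and 161 against 456 and 649 and was at -2.04 (± 0.35 SE, adjusted p = 0.00592). The call was narrowly missed without mutant siRNA replicate 2 (adjusted p = 0.0503). The study listed that Rtn4r probe set as down-regulated on the same arrays, and 2 further probe sets of Rtn4r were not called, at -0.77 and -0.90. Tiam1, a Rac activator that binds Eph receptors, had 38.3 and 106 against 343 and 291 and was at -2.23 (± 0.53 SE, adjusted p = 0.0188), which did not hold without mutant siRNA replicate 1 or 2 (adjusted p = 0.113 and 0.0782) or without an intensity trend (0.0504), and its 3 other probe sets were too dim to test. Pdzrn3, a ubiquitin ligase that binds ephrin-B, had 1137 and 2889 against 9103 and 6924 and was at -2.05 (± 0.39 SE, adjusted p = 0.00857), lost without mutant siRNA replicate 1 (adjusted p = 0.0520) and without an intensity trend (0.0536). For all 4 genes both wild type siRNA arrays lay below both mutant siRNA arrays in the brightest probe set. The 3 dimmer probe sets of Tiam1 were at -0.24, -0.12 and -0.09 and did not repeat the size of its change. Rgma, a membrane-anchored ligand of Neo1, was lower as well, at -1.43 (adjusted p = 0.0106), and missed the threshold without mutant siRNA replicate 2 (0.0728).

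On the higher side, Gsk3b, a kinase that phosphorylates collapsin response mediators, had signals of 2578 and 2072 against 438 and 409, a log2 fold change of 2.53 (± 0.21 SE, adjusted p = 0.00102). Dpysl3, one of these mediators of semaphorin signals, had 2040 and 2284 against 635 and 540 and was at 1.96 (± 0.21 SE, adjusted p = 0.00161), a second probe set being higher too at 1.80. Limk2, a kinase that inactivates cofilin, had 842 and 1152 against 318 and 456 and was at 1.45 (± 0.27 SE, adjusted p = 0.00795). Arhgef12, an exchange factor bound by class B plexins, had 914 and 726 against 284 and 413 and was at 1.33 (± 0.26 SE, adjusted p = 0.00892), a second probe set being at 2.08. The groups of these 4 genes did not overlap. Without mutant siRNA replicate 1, Limk2 and Arhgef12 missed the threshold (adjusted p = 0.0508 and 0.0559). Of the 8 smooth muscle markers, 2 were higher on the same arrays (Tagln at 1.72 and Acta2 at 2.37), 2 of the 4 tested were not called (Myh11 at 1.37 and Smtn at -0.84), and the other 4 were too dim to test. Their part in the change of Limk2 was not tested.

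**Figure D4:**
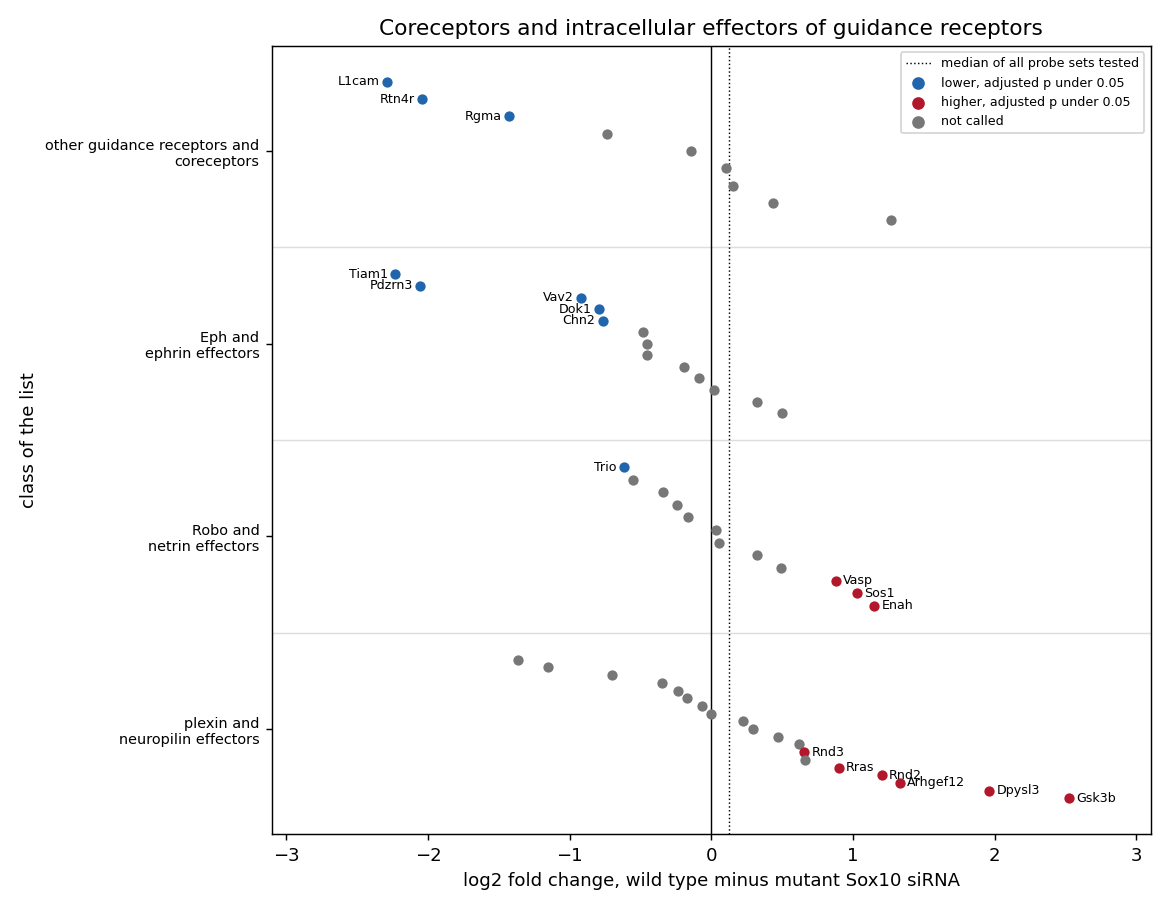
Log2 fold change (wild type minus mutant Sox10 siRNA) of 53 tested genes in 4 classes of the list of coreceptors and effectors, 1 point per gene, sorted within each class of the list. Blue and red mark genes lower and higher at an adjusted p under 0.05, and the dotted line the median of all probe sets tested (0.13). L1cam at -2.29 and Gsk3b at 2.53 lie at the ends, and the Robo and netrin class holds both a blue point (Trio) and red points.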

How the data were processed

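The authors deposited intensity values, one MAS5 signal for every probe set of each of 4 arrays, on a linear scale. Trimmed by 2% at both ends, each array averages 500.2, so the arrays were scaled alike. The submitters' notes give MAS5 with no version. After removal of 57 control probe sets, 31042 were available. Symbols were those of the platform annotation, and all 56 member genes have the same symbol in RefSeq.

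Signals were put on the log2 scale and shifted to a common array median. Probe sets reaching the median on at least 2 arrays (16125) entered limma (version 3.58.1, R 4.3.3, trended eBayes), and an adjusted p (Benjamini-Hochberg) below 0.05 was taken as a call. The members, the effector and marker lists and the alternatives were chosen with earlier results of these data known. Called members, and the 4 largest called effector changes in each direction, are given with full statistics, and other members by values and counts. Rgma and the single markers were named after their values were seen. Other scalings, floors, filters, variance models and probe sets were tried, as were the methods' t-test (taken as unpaired on log2 values), leaving out each array, and a replicate block. The pairing comes from the series design and the study, which describe paired cell samples. Within pairs, deviations from the group mean had a correlation of 0.14. The fit was tested on simulated data. The remaining class of the effector list is not reported here by itself. The small number of arrays limits the precision. Other software was Python 3.11.15 with pandas 2.3.3, and matplotlib 3.10.9 for the plots.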

Additional observations from a re-analysis of the deposited data

How the results depend on the processing

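The 4 guidance genes lower and 1 higher became 2 and 1 with no filter (Plxna3 and Plxnd1 being lost), 2 and 0 with the methods' t-test at an unadjusted p under 0.05 (Ephb3 being among those lost), and 0 and 0 after Benjamini-Hochberg adjustment. After that adjustment Sox10 itself, at -3.54, did not pass, and all probe sets gave 0 lower and 2 higher against 1956 and 2348 with limma. Over all member probe sets 7 were lower. With the signals as deposited 5 guidance genes were lower and 1 was higher, and the counts were the same with quantile normalization. All probe sets gave 2280 lower and 1940 higher as deposited, and 2150 and 2043 once quantile normalized. With the filter at the median on all 4 arrays 0 were higher, and with that on both mutant siRNA arrays 0, since neither filter tests Sema3a. With the replicate block 6 genes were lower, Efnb1 and Sema6a being added, and 1 was higher, and the block changed no other call among the member probe sets.

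With an array left out, the lone array being assumed to vary like the other group, 1 to 8 guidance genes were lower (1 without mutant siRNA replicate 1, 2 without wild type siRNA replicate 1, 8 without wild type siRNA replicate 2), and 1 was higher each time, which was Robo2 in place of Sema3a without wild type siRNA replicate 1. Of the effectors, 9 lower and 13 higher at first, 2 to 9 were lower and 5 to 12 higher. They were 5 lower with no filter, 5 lower with the t-test at an unadjusted p, 0 and 0 after its adjustment, and 3 lower and 8 higher without an intensity trend. All probe sets gave 1187 lower and 1177 higher without that trend, and 706 to 2519 lower and 924 to 2128 higher with an array left out.

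Signs turned only in genes that were not called. Plxnb2 was at -0.024 after quantile normalization and at -0.0024 as deposited. Sema3c was at -0.065 after quantile normalization and between -0.065 and 0.26 with an array left out. Over the arrays left out, Slit2 lay between -0.39 and 0.22, its second probe set between -0.68 and 0.24, Unc5b between -0.32 and 0.60 and its second probe set between -0.55 and 0.96. The cause of these shifts was not tested.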
